A study of Mus musculus with 15 samples.

Results

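Gene expression in the aorta of diabetic mice that lacked both Apoe and RAGE was set against that of non-diabetic mice that lacked Apoe alone, on 8 of the 15 arrays of the study. The first group, called diabetic Apoe/RAGE null here as in the labels, comprised 4 male C57BL/6 mice given 5 daily streptozotocin injections of 65 mg/kg at 6 weeks of age (replicates 9 to 12). The second, non-diabetic Apoe null, comprised 4 male C57BL/6 mice of the same age (replicates 5 to 8), which received citrate buffer in place of streptozotocin. Both groups were killed at 9 weeks, and the RNA of each whole aorta, root to bifurcation, was hybridised to its own array. The arrays were chosen by their labelled genotype and disease state, with no use of measured values. All mice of the study lacked Apoe. The remaining arrays, of 3 non-diabetic Apoe/RAGE null and 4 diabetic Apoe null aortas, are given only beside the comparison. The double null mice had been bred in another laboratory's colony, while those lacking Apoe alone were bought. Diabetes, the RAGE genotype and the colony therefore all differ between the groups and cannot be told apart. Replicate numbers run over the whole study and pair no mice, and precision is limited by how few arrays each group holds.

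RAGE, encoded by Ager, is a cell surface receptor of the immunoglobulin family that binds glycated proteins, S100 proteins and HMGB1 and signals to NF-kappaB. Glycated proteins accumulate in diabetes, and in Apoe null mice, whose plasma cholesterol is high, RAGE deletion is known to lessen diabetic atherosclerosis. Streptozotocin kills the insulin-producing beta cells of the pancreas, and insulin drives lipogenic genes through the transcription factor SREBP1. The question set by the comparison is which differences between diabetic and non-diabetic aorta are present when the diabetic mouse also lacks RAGE.

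All levels are log2 values, and all differences are log2 differences, diabetic Apoe/RAGE null minus non-diabetic Apoe null unless another pair is named. They are given ± the standard error of a limma fit over all 15 arrays, and adjusted p-values are Benjamini-Hochberg values over all 45037 probe sets. The tissue was checked against smooth muscle genes. Tagln, an actin-binding protein of smooth muscle, lay between 12.70 and 13.05 in diabetic Apoe/RAGE null and between 12.89 and 13.16 in non-diabetic Apoe null aortas, among the highest levels given here. Myh11, smooth muscle myosin, lay between 11.75 and 12.25 in diabetic Apoe/RAGE null and between 12.01 and 12.40 in non-diabetic Apoe null aortas. Aortic RNA is a mixture of cell types, and fewer cells of a type and less RNA per cell cannot be told apart in any result below.

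The diabetic Apoe/RAGE null arrays did not match one another at genes near Ager on chromosome 17. Decr2, a peroxisomal reductase of fatty acid oxidation, read 5.19, 5.10, 7.40 and 7.56 in replicates 9, 10, 11 and 12, against 5.57, 5.84, 5.98 and 6.01 in non-diabetic Apoe null aortas. It read 6.84, 6.98 and 6.90 in the 3 non-diabetic Apoe/RAGE null aortas. Replicates 11 and 12 thus lay above every non-diabetic Apoe null array, as the other double null arrays did, and above those too. Replicates 9 and 10 lay on the other side, below every non-diabetic Apoe null array. Zfp52, a zinc finger gene, read 7.45, 7.98, 6.08 and 5.83 in the same diabetic Apoe/RAGE null arrays, against 7.08, 7.37, 7.31 and 7.30 in non-diabetic Apoe null aortas, and between 6.46 and 6.80 in non-diabetic Apoe/RAGE null aortas. At Zfp52 replicates 9 and 10 lay above every non-diabetic Apoe null array, and replicates 11 and 12 below every non-diabetic Apoe/RAGE null array. These genes were chosen earlier from these arrays for this split, so they describe it and do not test it. The probe sets for the targeted genes do not check the genotype. Ager read 4.63, 4.48, 5.36 and 4.95 in diabetic Apoe/RAGE null and 4.69, 4.59, 4.68 and 4.45 in non-diabetic Apoe null aortas, so it was not lower where RAGE was deleted. Apoe lay between 3.14 and 4.04 on the 8 arrays of both diabetic Apoe null and non-diabetic Apoe null groups and between 3.53 and 3.76 in diabetic Apoe/RAGE null aortas. Because replicates 9 and 10 went against their label at these genes, many results are given with and without them. The group is called diabetic Apoe/RAGE null as labelled.

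**Figure D1:**
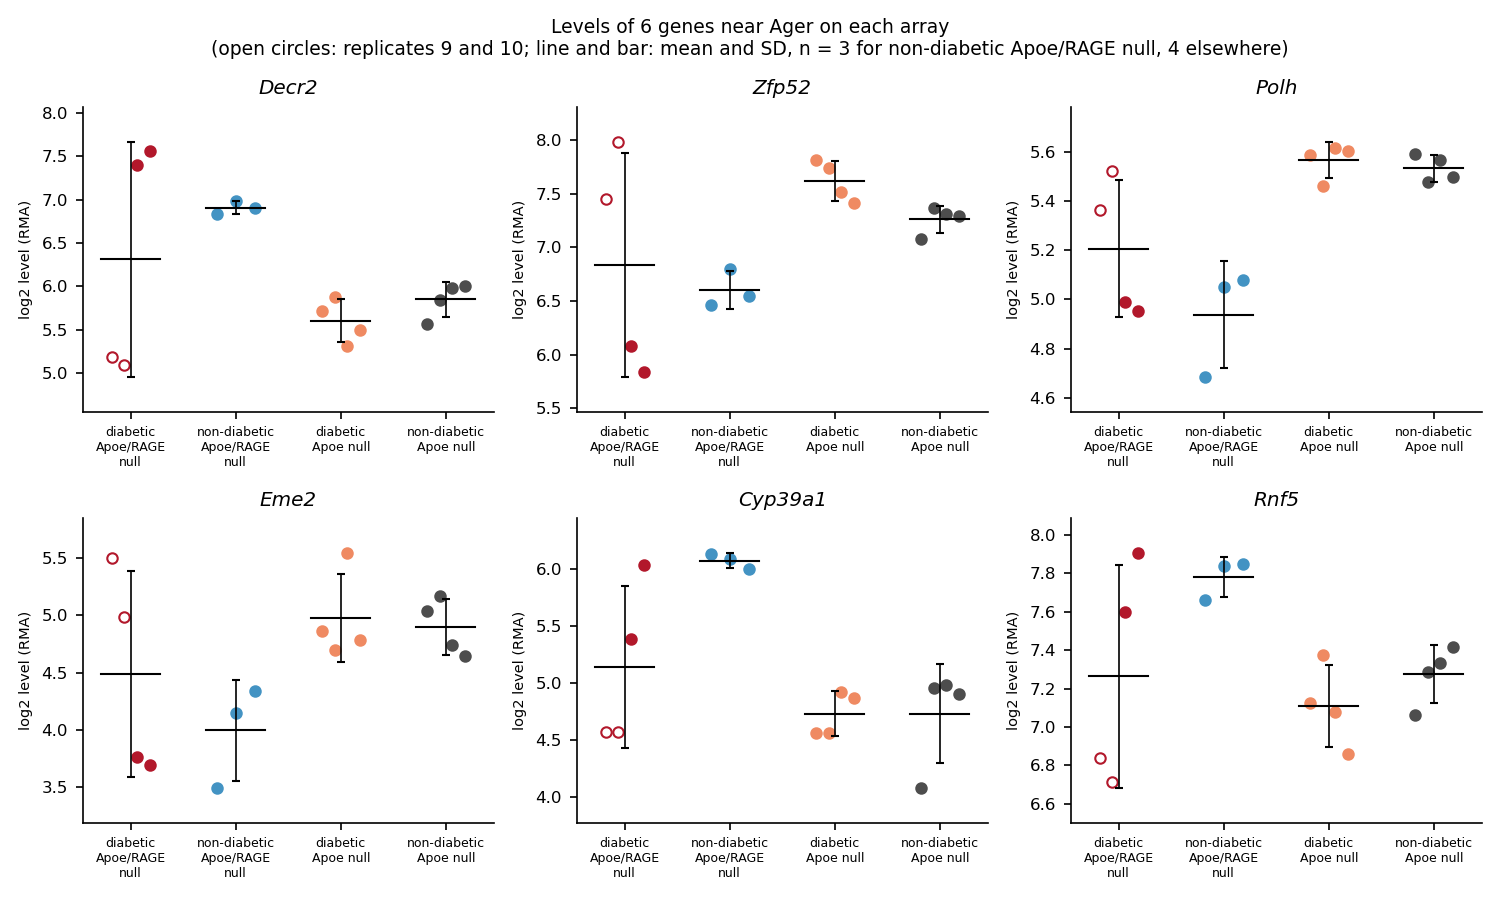
Log2 levels of 6 genes near Ager on each array, with the group mean and SD as line and bar. In every panel replicates 9 and 10 (open circles) of the diabetic Apoe/RAGE null group lie apart from replicates 11 and 12, and for Decr2 they read 5.19 and 5.10 against 7.40 and 7.56.

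No probe set passed an adjusted p of 0.05 in diabetic Apoe/RAGE null against non-diabetic Apoe null aortas (0% of 45037). The smallest adjusted p was 0.342, shared by 137 probe sets, and 4124 probe sets (9.16%) had an unadjusted p under 0.05, of which 1847 were higher and 2277 lower. A log-odds value B above 0, the submitters' threshold, was reached by 44 probe sets (0.0977%), 20 higher and 24 lower. With 1 probe set per gene, the groups did not overlap for 314 of 18193 genes that were higher (1.73%) and 331 that were lower (1.82%). Differences over 1 log2 unit were found for 177 genes that were higher and 14 that were lower. Without replicates 9 and 10, 12 probe sets were called (0.0266%), 5 higher and 7 lower. All 7 of them with a named gene (Decr2, Zfp52, Riok2, Zfp945, Zfp944, Gtpbp2 and Zfp942) lay within 20 Mb of Ager, where 568 of 18193 genes (3.12%) lie. Replicates 9 and 10 were left out because of how Decr2 and Zfp52 split, so these calls follow from that choice and support nothing. Since no gene passed the test in this comparison, the values below are differences with their errors, not calls.

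The diabetic Apoe null group shares the non-diabetic Apoe null arrays as its reference, so its differences are set beside those of the diabetic Apoe/RAGE null group as values only. In diabetic Apoe null minus non-diabetic Apoe null aortas no probe set passed the test (0%), 4791 (10.6%) had an unadjusted p under 0.05 and 76 (0.169%) had B above 0. Between the diabetic groups, 110 probe sets passed the test (0.244%), 12 higher (0.0266%) and 98 lower (0.218%) in diabetic Apoe/RAGE null aortas. Without replicates 9 and 10, 22 passed (0.0488%), of which 7 were also among the 110. The diabetic groups differ in both RAGE genotype and colony, so these cannot be told apart in any value between them.

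Lipogenic genes were lower in diabetic Apoe/RAGE null aortas, with a median difference of -0.45 over the 18 genes of a list of fatty acid synthesis genes and other SREBP1 targets. The median over all 18193 genes was -0.02. Of the 18, 15 were lower and 3 higher, and 5 had an unadjusted p under 0.05, all lower, where 5.18% of all genes did. In no member did the groups fail to overlap. The same list had a median of -1.18 in diabetic Apoe null minus non-diabetic Apoe null aortas, where 1 of 18 was higher. In diabetic Apoe/RAGE null minus diabetic Apoe null aortas its median was 0.65 and all 18 were higher, though none of the members named here passed the test.

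Fasn, fatty acid synthase, read 10.97, 10.34, 10.39 and 11.76 in diabetic Apoe/RAGE null aortas and 9.91, 9.99, 9.36 and 9.53 in diabetic Apoe null aortas, against 12.57, 11.55, 11.93 and 12.09 in non-diabetic Apoe null aortas. All 4 diabetic Apoe/RAGE null arrays were above every diabetic Apoe null array, and only replicate 12 reached into the non-diabetic range. The difference from non-diabetic Apoe null was -1.17 ± 0.29 (adjusted p = 0.351), a 2.25-fold lower level, and that of diabetic Apoe null was -2.33 ± 0.29 (adjusted p = 0.0515). Between the diabetic groups Fasn differed by 1.17 ± 0.29 (adjusted p = 0.0978). Acss2, which makes acetyl-CoA from acetate, was -0.97 ± 0.34 from non-diabetic Apoe null, Slc25a1, the mitochondrial citrate carrier, -0.83 ± 0.26, and Me1, malic enzyme and a source of NADPH, -0.83 ± 0.26. Acaca, acetyl-CoA carboxylase, read 9.10, 8.70, 8.95 and 9.48 in diabetic Apoe/RAGE null, 8.00, 8.36, 7.92 and 8.21 in diabetic Apoe null and 10.32, 9.18, 9.51 and 9.78 in non-diabetic Apoe null aortas. By group means it was in the order of Fasn. The size of the list's median rested on single arrays. It was -0.28 without replicate 10, -0.30 without non-diabetic replicate 5 and -0.18 without replicates 9 and 10, when 7 of the 18 were higher.

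Markers of fat cells had different medians in the diabetic groups, a difference that was not tested. White adipocyte markers (10 measured) had a median of -0.08 in diabetic Apoe/RAGE null and -0.50 in diabetic Apoe null against non-diabetic Apoe null aortas. The first was 0.04 without replicate 10, and 0.23 with 9 of 10 higher without replicates 9 and 10. Brown adipocyte markers (10 measured) had medians of -0.14 and -0.90 in the same comparisons, the first turning to 0.32 without replicates 9 and 10. Ucp1, the uncoupling protein that defines brown fat, read 11.26, 10.90, 12.20 and 12.31 in diabetic Apoe/RAGE null and 12.18, 11.83, 11.93 and 12.08 in non-diabetic Apoe null aortas, with replicates 9 and 10 below and 11 and 12 above all 4 non-diabetic arrays. The part of fat cells in the lipogenic values was not tested.

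The promoter of Fasn is shown because this gene had the largest difference of the list. It is the 250 bases before the RefSeq start at chr11:120824548-120824797 (GRCm38.p6, minus strand, written 5′ to 3′), with CCAAT in capitals on either strand, the letters bound by the factor NF-Y.
Fasn: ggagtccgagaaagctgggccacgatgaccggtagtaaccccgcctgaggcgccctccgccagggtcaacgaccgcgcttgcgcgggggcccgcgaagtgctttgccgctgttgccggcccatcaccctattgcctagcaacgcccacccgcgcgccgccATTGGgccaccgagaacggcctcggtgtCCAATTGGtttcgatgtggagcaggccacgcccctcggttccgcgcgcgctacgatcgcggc
It held 3 CCAAT matches, as 33.8% of 32851 mouse promoters of this length held at least 1. It held neither the sterol regulatory element core CACCCCA nor the E-box CACGTG. The core was found in 1 of 16 members with a listed promoter and in 6.68% of all promoters, and the E-box in 3 of 16 and in 6.02%. A match is a description of the letters only.

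Genes that burn fat were near the non-diabetic level in diabetic Apoe/RAGE null aortas, with replicates split. The list of fatty acid oxidation genes and targets of PPAR (18 measured) had a median of -0.02, and oxidative phosphorylation genes (18 measured) one of -0.01. In diabetic Apoe null aortas the medians were -0.64 and -0.46. Without replicates 9 and 10 they were 0.38, with 17 of 18 higher, and 0.28, with 18 of 18 higher. Glycolysis genes (12 measured) had a median of 0.01 with all arrays, 0.19 without replicates 9 and 10, and -0.34 in diabetic Apoe null aortas. Acot1, an acyl-CoA thioesterase induced by PPAR alpha, read 4.88, 5.10, 6.04 and 5.42 in diabetic Apoe/RAGE null and 3.90, 4.40, 3.72 and 4.37 in diabetic Apoe null aortas, against 5.07, 4.60, 4.39 and 4.63 in non-diabetic Apoe null aortas. The diabetic groups did not overlap, and Acot1 rose by 1.26 ± 0.23 in the double null group (adjusted p = 0.0432, and 0.0235 without replicates 9 and 10). Against non-diabetic Apoe null its difference was 0.69 ± 0.23 (adjusted p = 0.453). Hadha, a subunit of the mitochondrial trifunctional protein, read 9.97, 9.48, 10.61 and 10.81 in diabetic Apoe/RAGE null and 10.63, 10.12, 10.40 and 10.69 in non-diabetic Apoe null aortas. Its difference was -0.24 ± 0.28, and 0.25 without replicates 9 and 10. Fabp3, the fatty acid binding protein of muscle and brown fat, read 10.30, 9.80, 11.68 and 11.45 in diabetic Apoe/RAGE null aortas. It read 10.23, 10.21, 10.21 and 11.18 in non-diabetic Apoe null aortas, and was again high in replicates 11 and 12. Fabp3 is also a member of the brown adipocyte list. The part of fat cells in the values of this paragraph was not tested.

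**Figure D2:**
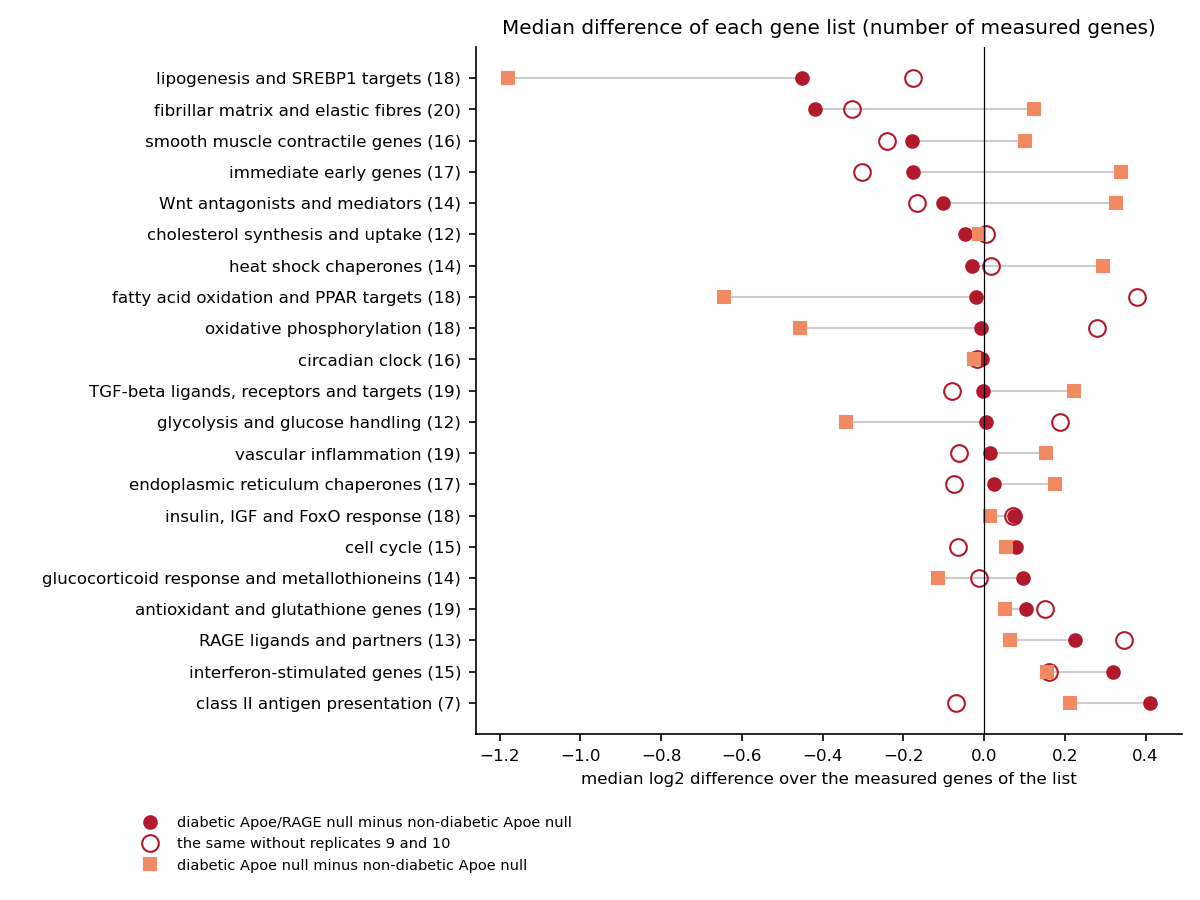
Median log2 difference of 21 gene lists, ordered by diabetic Apoe/RAGE null minus non-diabetic Apoe null (red dots), with the same without replicates 9 and 10 (open circles) and diabetic Apoe null minus non-diabetic Apoe null (orange squares). Lipogenesis stands at -0.45 and -1.18, matrix genes at -0.42 and 0.12, and interferon-stimulated genes at 0.32 and 0.16 in the 2 groups.

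Heat shock chaperones, which bind unfolded proteins, were near the non-diabetic level in diabetic Apoe/RAGE null aortas. Of 14 measured, 5 were higher and 9 lower, with a median of -0.03, and 0.02 without replicates 9 and 10. In diabetic Apoe null aortas the median was 0.30 and 11 were higher, and between the diabetic groups it was -0.33 with 2 higher. Hspa1b, an inducible HSP70 gene chosen after its values were seen, read 10.65, 9.71, 9.71 and 9.60 in diabetic Apoe/RAGE null and 11.57, 10.63, 11.51 and 11.62 in diabetic Apoe null aortas, against 9.82, 10.07, 10.18 and 10.19 in non-diabetic Apoe null aortas. Replicate 9 stood above the other double null arrays and just above the lowest diabetic Apoe null array. Hspa1b was -0.15 ± 0.24 from non-diabetic Apoe null (adjusted p = 0.872, 95% interval -0.66 to 0.37) and -1.41 ± 0.24 from diabetic Apoe null (adjusted p = 0.0432). Its neighbour Hspa1a, which encodes a nearly identical protein, was -0.36 ± 0.32 from non-diabetic Apoe null and -1.68 ± 0.32 from diabetic Apoe null (adjusted p = 0.0469). Without replicates 9 and 10 the differences between the diabetic groups were -1.68 for Hspa1b (adjusted p = 0.0235) and -1.80 for Hspa1a (adjusted p = 0.0765). Both genes lie within 20 Mb of Ager on chromosome 17. Replicates 9 and 10 were left out for their values in that region, so these 2 values are no separate support. Hsph1, an HSP110 chaperone elsewhere in the genome, read 8.85, 8.47, 9.24 and 8.03 in diabetic Apoe/RAGE null and 9.83, 9.45, 9.35 and 9.48 in diabetic Apoe null aortas, against 8.41, 8.37, 8.46 and 8.38 in non-diabetic Apoe null aortas. All diabetic Apoe/RAGE null arrays were below all diabetic Apoe null arrays, with a difference of -0.88 ± 0.19 (adjusted p = 0.0659). Cryab, the small heat shock protein alpha B-crystallin, was the member whose groups did not overlap, at -0.35 ± 0.16 from non-diabetic Apoe null, and -0.18 without non-diabetic replicate 8, which stood above its group. Endoplasmic reticulum chaperones (17 measured) had a median of 0.02, with 9 higher, and 0.17 with 16 higher in diabetic Apoe null aortas.

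The promoter of Hspa1b is shown as that of a chaperone gene with a called difference between the diabetic groups with all arrays. It is chr17:34959239-34959488 (GRCm38.p6, RefSeq, minus strand, 5′ to 3′), and capitals mark the paired heat shock element GAANNTTC or TTCNNGAA, an inverted pair of the trimers that heat shock factor 1 is known to bind.
Hspa1b: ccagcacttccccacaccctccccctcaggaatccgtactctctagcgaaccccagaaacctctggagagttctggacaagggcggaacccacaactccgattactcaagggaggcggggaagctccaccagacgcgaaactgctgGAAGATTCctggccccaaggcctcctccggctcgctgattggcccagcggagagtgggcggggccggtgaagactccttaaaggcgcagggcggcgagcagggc
The pair was found on either strand in 6 of 11 chaperone genes with a listed promoter (Hspa1a, Hspa1b, Hsph1, Dnaja1, Hspe1 and Hspb1) and in 12.8% of all promoters.

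**Figure D3:**
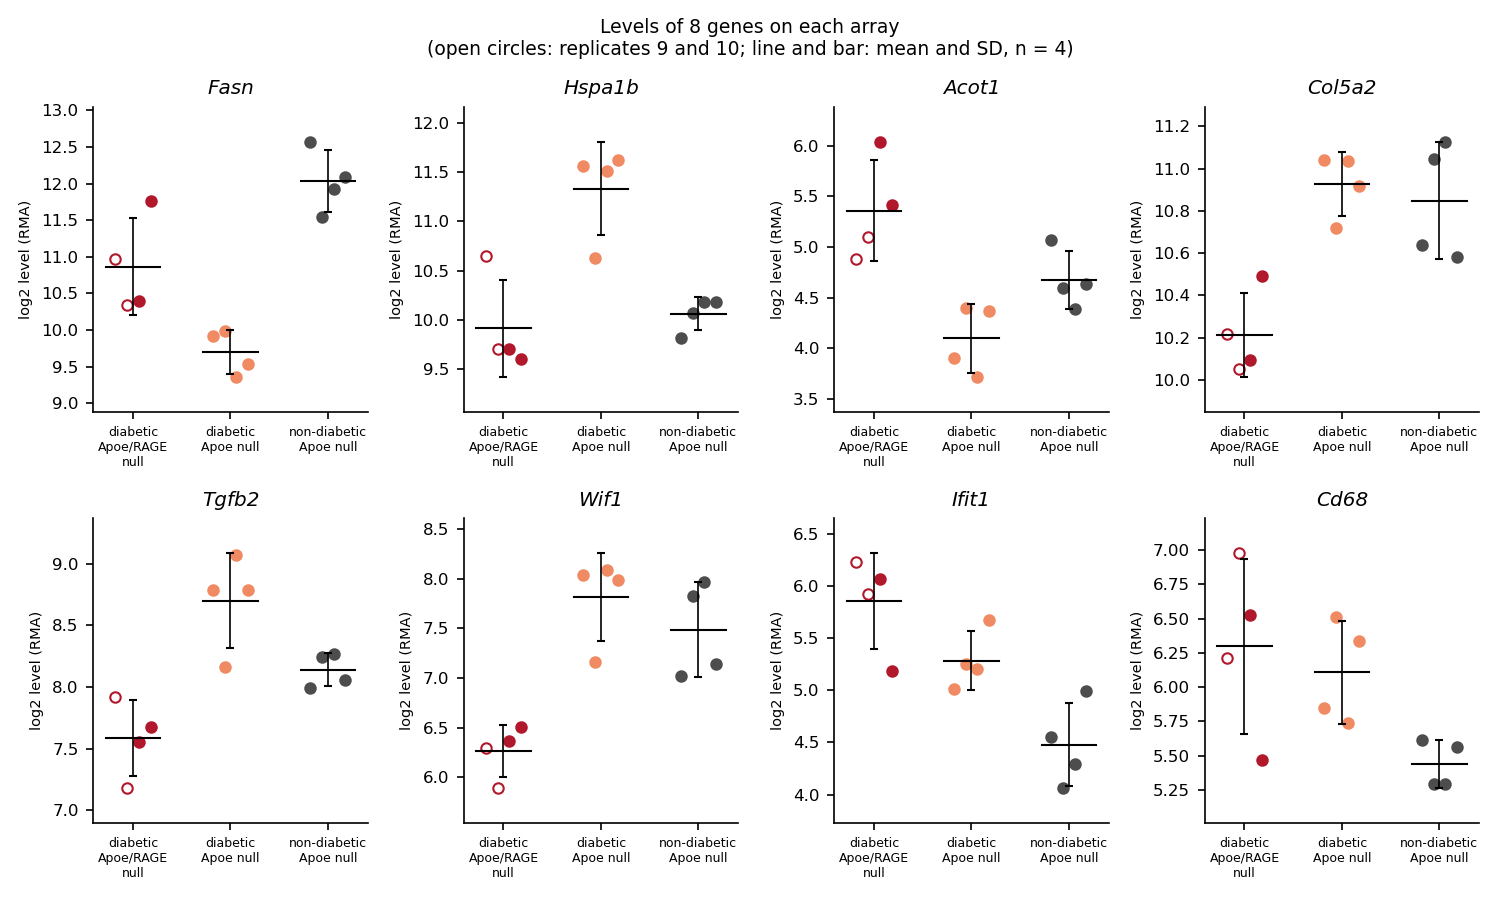
Log2 levels of 8 genes on each array of 3 groups, with the group mean and SD as line and bar and replicates 9 and 10 as open circles. Fasn lies between the other groups in diabetic Apoe/RAGE null aortas, Hspa1b near the non-diabetic Apoe null level, Col5a2, Tgfb2 and Wif1 below both other groups, and Ifit1 above every non-diabetic Apoe null array.

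Fibrillar collagens and elastic fibre genes, the structural matrix of the aortic wall, were lower in diabetic Apoe/RAGE null aortas. Of 20 measured, 18 were lower, with a median of -0.42, and 15 had an unadjusted p under 0.05, all lower, where 5.18% of all genes did. The groups did not overlap for 7, all lower, where 1.82% of all genes were lower without overlap. The list's median in diabetic Apoe null aortas was 0.12, with 14 higher. Between the diabetic groups it was -0.44 and none was higher, and between the double null groups, diabetic minus non-diabetic, it was -0.25 and 2 were higher. Non-diabetic Apoe/RAGE null aortas had a median of -0.15 against non-diabetic Apoe null. Without replicates 9 and 10 the median was -0.33, with 19 of 20 lower.

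Col5a2, a collagen V chain that regulates fibril diameter, read 10.22, 10.05, 10.09 and 10.49 in diabetic Apoe/RAGE null, against 10.64, 11.04, 11.13 and 10.58 in non-diabetic Apoe null aortas. Every diabetic Apoe/RAGE null array was below every non-diabetic one, with a difference of -0.63 ± 0.15 (adjusted p = 0.342), and the 4 diabetic Apoe null arrays, at 10.72 to 11.04, lay with the non-diabetic ones. Mfap4, a microfibril protein bound to elastin, read 9.59, 9.27, 9.40 and 9.61 in diabetic Apoe/RAGE null and 10.15, 10.27, 10.43 and 9.80 in non-diabetic Apoe null aortas, without overlap and -0.69 ± 0.16 apart. Eln, elastin itself, read 10.89, 10.87, 11.26 and 10.97 against 11.60, 11.97, 11.91 and 11.27 in non-diabetic Apoe null aortas, a difference of -0.69 ± 0.20. The highest diabetic Apoe/RAGE null array was just below the lowest non-diabetic array. The collagen I chains differed by -0.92 ± 0.26 (Col1a1) and -0.50 ± 0.13 (Col1a2), and the collagen III chain Col3a1 by -0.42 ± 0.12, each without overlap. For Col1a1 the difference was -0.56 without replicates 9 and 10, and -0.52 ± 0.26 in diabetic Apoe null aortas. Sparc, a collagen-binding glycoprotein, and Postn, periostin, differed by -0.45 ± 0.12 and -0.49 ± 0.15, with overlap. Lox, the enzyme that cross-links collagen and elastin, was chosen after its values were seen. It read 8.76, 8.73, 9.08 and 8.79 in diabetic Apoe/RAGE null and 9.79, 9.69, 10.04 and 9.71 in diabetic Apoe null aortas, against 8.98, 9.54, 9.58 and 8.97 in non-diabetic Apoe null aortas. The diabetic groups stood apart, with a difference of -0.96 ± 0.15 (adjusted p = 0.0356, and 0.0953 without replicates 9 and 10), while the difference from non-diabetic Apoe null was -0.43 ± 0.15 (adjusted p = 0.46). Col15a1, a basement membrane collagen named by the rule on the smallest p, was -0.86 ± 0.19 with no overlap.

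**Figure D4:**
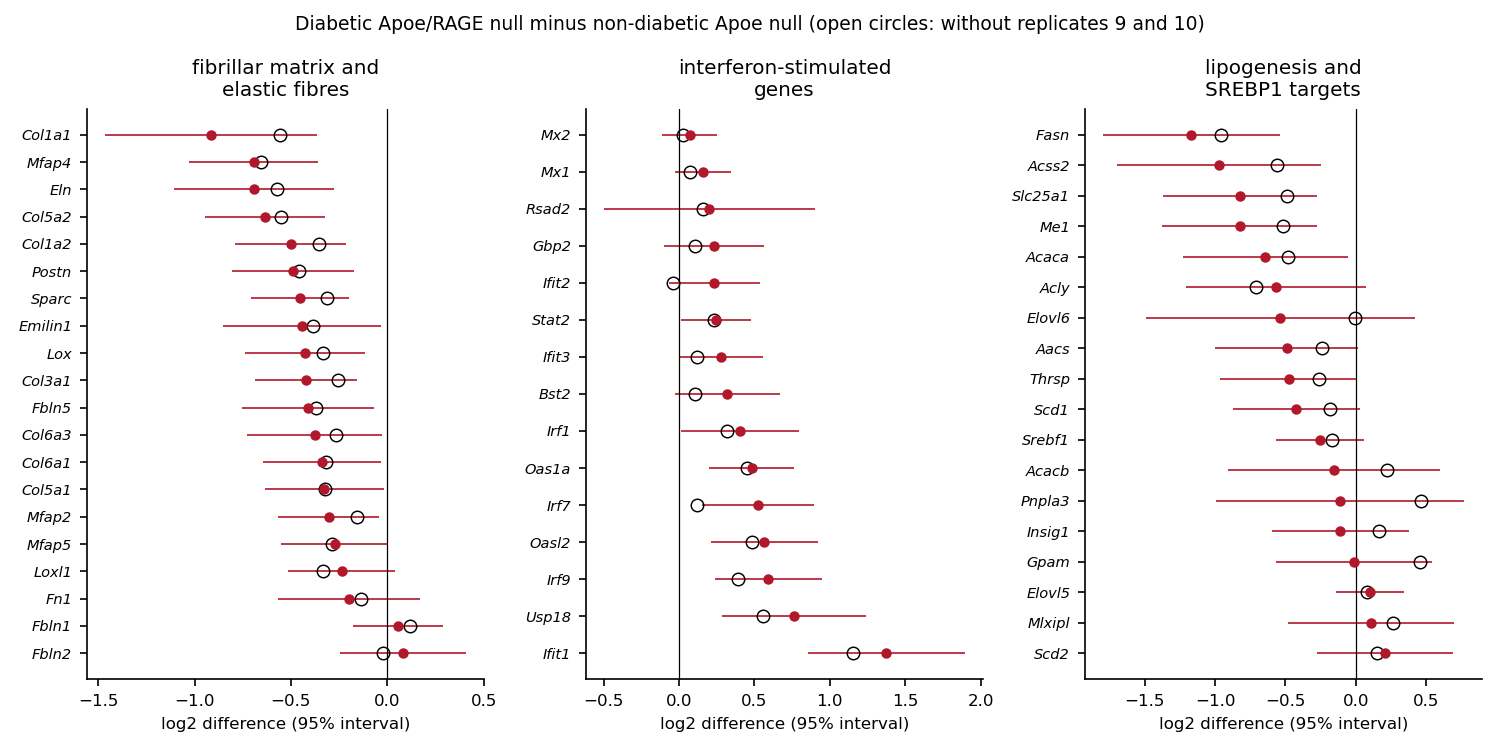
Log2 differences, diabetic Apoe/RAGE null minus non-diabetic Apoe null, with 95% intervals of single genes from limma, for 20 matrix, 15 interferon-stimulated and 18 lipogenic genes, and the value without replicates 9 and 10 as an open circle. Col1a1 stands lowest of the matrix genes at -0.92, Ifit1 highest of the interferon-stimulated genes at 1.38 and Fasn lowest of the lipogenic genes at -1.17.

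The TGF-beta pathway, which drives matrix production, had no common direction. Of 19 measured ligands, receptors and targets, 9 were higher and 10 lower, with a median of 0.00, but the 5 with an unadjusted p under 0.05 were all lower (Tgfb2, Tgfb3, Ltbp3, Bgn and Ltbp2), where 5.18% of all genes were lower at that level. Tgfb2, a TGF-beta ligand, read 7.92, 7.18, 7.55 and 7.68 in diabetic Apoe/RAGE null and 8.78, 8.16, 9.07 and 8.79 in diabetic Apoe null aortas, against 7.99, 8.24, 8.26 and 8.06 in non-diabetic Apoe null aortas. The diabetic Apoe/RAGE null arrays were below all arrays of both other groups. The difference was -0.55 ± 0.18 from non-diabetic Apoe null (adjusted p = 0.45) and -1.12 ± 0.18 from diabetic Apoe null (adjusted p = 0.0377, and 0.0678 without replicates 9 and 10). Tgfb3, another ligand, was -0.50 ± 0.18 from non-diabetic Apoe null without overlap, and Ltbp3, which anchors latent TGF-beta in the matrix, was -0.33 ± 0.13 with overlap.

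Of 14 measured Wnt antagonists and mediators, 11 were lower and 3 higher in diabetic Apoe/RAGE null aortas. The 3 with an unadjusted p under 0.05 were secreted antagonists, all lower, where 5.18% of all genes were. Wif1, which binds Wnt proteins outside the cell, read 6.30, 5.90, 6.36 and 6.51 in diabetic Apoe/RAGE null and 8.04, 7.16, 8.09 and 7.99 in diabetic Apoe null aortas, against 7.02, 7.83, 7.97 and 7.14 in non-diabetic Apoe null aortas. No diabetic Apoe/RAGE null array reached either other group. Wif1 was -1.22 ± 0.24 from non-diabetic Apoe null (adjusted p = 0.342) and -1.55 ± 0.24 from diabetic Apoe null (adjusted p = 0.0377, and 0.101 without replicates 9 and 10). Sfrp2, a secreted frizzled-related protein, read 8.56, 8.06, 8.86 and 8.24 in diabetic Apoe/RAGE null, against 9.16, 9.33, 9.65 and 8.97 in non-diabetic Apoe null aortas. Sfrp2 was -0.85 ± 0.21 from that group without overlap, and -1.20 ± 0.21 from diabetic Apoe null (adjusted p = 0.0432, and 0.105 without replicates 9 and 10). Dkk3, of the Dickkopf family, was -0.55 ± 0.20 from non-diabetic Apoe null without overlap. These 3 were the members of the list whose groups did not overlap, where 1.82% of all genes were lower without overlap. The list's median was -0.10, between -0.05 and -0.17 with single arrays left out, and -0.17 without replicates 9 and 10. It was also -0.10 in non-diabetic Apoe/RAGE null against non-diabetic Apoe null aortas, with 2 of 14 higher. In diabetic minus non-diabetic Apoe/RAGE null aortas it was -0.03, with 7 higher. Igfbp2, an IGF-binding protein named by the rule, read 4.69, 5.08, 4.14 and 4.95 in diabetic Apoe/RAGE null and 5.55, 6.05, 5.92 and 5.36 in non-diabetic Apoe null aortas, a difference of -1.0 ± 0.22 without overlap. Igfbp3, the main IGF carrier of plasma, was higher in diabetic Apoe/RAGE null aortas, at 5.61, 7.80, 6.60 and 5.63 against 4.69, 4.92, 4.42 and 5.37. All 4 arrays lay above the non-diabetic Apoe null ones, by 1.56 ± 0.42 (adjusted p = 0.378).

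Genes of smooth muscle and fibroblasts, cells that make this matrix, had smaller median differences than the matrix list. Contractile genes of smooth muscle (16 measured) had a median of -0.18, with 15 lower, and 0.10 with 15 higher in diabetic Apoe null aortas. The median was -0.08 without non-diabetic replicate 6, -0.31 without non-diabetic replicate 5 and -0.09 without replicate 11. Without replicates 9 and 10 it was -0.24. Smtn, smoothelin, read 10.30, 9.96, 9.69 and 10.39 in diabetic Apoe/RAGE null and 10.27, 10.89, 10.80 and 10.30 in non-diabetic Apoe null aortas, and the groups overlapped. Its difference was -0.48 ± 0.22, and that of Cnn1, calponin, -0.38 ± 0.19. Adventitial fibroblast markers (10 measured) had a median of -0.18, with 7 lower, and -0.09 without replicate 10. Mfap5 is in both this list and the matrix list. Pi16, a marker of adventitial progenitor fibroblasts that lies within 20 Mb of Ager, was -0.58 ± 0.17 without overlap, and Dpep1, a dipeptidase, was 0.66 ± 0.16 the other way. The part of smooth muscle and fibroblast content in the matrix values was not tested.

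Interferon-stimulated genes, the antiviral programme that interferons switch on, were higher in diabetic Apoe/RAGE null aortas. All 15 measured members were higher, with a median of 0.32, and 9 had an unadjusted p under 0.05, where 4.36% of all genes were higher at that level. The groups did not overlap for 2 of the 15, where 1.73% of all genes were higher without overlap. The median was 0.16 in diabetic Apoe null aortas, with 13 higher, and 0.32 with 15 higher in diabetic minus non-diabetic Apoe/RAGE null aortas. It was 0.16 with 14 higher without replicates 9 and 10. Ifit1, which binds uncapped viral RNA, read 6.23, 5.93, 6.07 and 5.19 in diabetic Apoe/RAGE null and 5.01, 5.25, 5.20 and 5.67 in diabetic Apoe null aortas, against 4.55, 4.07, 4.30 and 4.99 in non-diabetic Apoe null aortas. Both diabetic groups lay above every non-diabetic array. Ifit1 was 1.38 ± 0.24 from non-diabetic Apoe null (adjusted p = 0.342), a 2.59-fold higher level, and 0.81 ± 0.24 in diabetic Apoe null (adjusted p = 0.342). Oas1a, a synthetase of the 2-5A messenger that activates RNase L, read 5.74, 6.28, 6.08 and 5.82 in diabetic Apoe/RAGE null and 5.62, 5.15, 5.70 and 5.53 in non-diabetic Apoe null aortas, without overlap and 0.48 ± 0.13 apart. Usp18, which removes ISG15 from proteins, differed by 0.76 ± 0.22, Irf9, a DNA-binding factor of the interferon response, by 0.59 ± 0.17, and Oasl2 by 0.57 ± 0.17, all with overlap. Irf7, a master regulator of type I interferon genes, read 5.88, 6.02, 5.17 and 5.11 in diabetic Apoe/RAGE null and 5.14, 4.97, 5.09 and 4.89 in non-diabetic Apoe null aortas. Irf7 was high in replicates 9 and 10, and its difference of 0.52 ± 0.17 was 0.12 without them.

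The promoters of both interferon-stimulated genes without overlap are shown, as the 250 bases before the RefSeq start. Ifit1 is at chr19:34640639-34640888 on the plus strand and Oas1a at chr5:120907526-120907775 on the minus strand (GRCm38.p6, 5′ to 3′). Capitals mark the interferon-stimulated response element GAAANNGAAA on either strand, a promoter element through which interferons induce genes, and overlapping matches are counted apart.
Ifit1: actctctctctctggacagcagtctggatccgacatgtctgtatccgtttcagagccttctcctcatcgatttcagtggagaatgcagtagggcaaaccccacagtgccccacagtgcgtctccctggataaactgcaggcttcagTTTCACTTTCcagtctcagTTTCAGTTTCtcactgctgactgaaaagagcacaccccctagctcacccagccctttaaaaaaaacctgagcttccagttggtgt
Oas1a: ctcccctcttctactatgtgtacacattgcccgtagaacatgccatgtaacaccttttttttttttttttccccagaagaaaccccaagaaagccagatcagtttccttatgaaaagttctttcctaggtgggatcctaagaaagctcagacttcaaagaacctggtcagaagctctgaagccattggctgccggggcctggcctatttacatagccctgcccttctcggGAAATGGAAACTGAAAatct
Each held 2 matches, and those of Oas1a overlap. The element was found in 7 of 12 members with a listed promoter (Stat2, Ifit1, Ifit3, Oas1a, Rsad2, Gbp2 and Bst2) and in 2.98% of all promoters.

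Macrophage markers were higher too, and most so on 1 array. All 17 measured were higher, with a median of 0.62, and 8 had an unadjusted p under 0.05, where 4.36% of all genes were higher at that level, but no member's groups were without overlap. The median was 0.28 without replicate 10, 0.30 without replicates 9 and 10, and 0.35 in diabetic Apoe null aortas. The markers' mean score, the log2 level less its mean over all 15 arrays, was 0.01, 1.21, 0.47 and -0.29 in diabetic Apoe/RAGE null aortas, and lay between -0.36 and -0.16 in non-diabetic Apoe null aortas. Cd68, a lysosomal protein of macrophages, read 6.21, 6.98, 6.53 and 5.46 in diabetic Apoe/RAGE null, against 5.61, 5.29, 5.29 and 5.56 in non-diabetic Apoe null aortas. Replicate 12 lay within the non-diabetic range and the other diabetic Apoe/RAGE null arrays above it. Lyz2, lysozyme of myeloid cells, differed by 1.02 ± 0.33. Vsig4, a complement receptor of resident macrophages, read 4.97, 5.14, 5.18 and 4.22 in diabetic Apoe/RAGE null and 4.08, 3.58, 3.21 and 4.11 in non-diabetic Apoe null aortas. It did not overlap, and was 1.13 ± 0.25 higher (adjusted p = 0.342), and 0.73 ± 0.25 in diabetic Apoe null. Pirb, an inhibitory receptor of myeloid and B cells, was 0.57 ± 0.12 higher without overlap. The score of the interferon-stimulated genes was 0.30, 0.51, 0.31 and -0.09 in diabetic Apoe/RAGE null and between -0.31 and -0.10 in non-diabetic Apoe null aortas. Both scores were highest in replicate 10 and lowest in replicate 12, and the part of macrophages in the interferon values was not tested.

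Lymphocyte markers rested on replicate 10. B and plasma cell markers (9 measured) had a median of 0.68, and -0.06 without replicate 10. Cd79a, a chain of the B cell receptor complex, read 3.55, 7.69, 4.65 and 3.74 in diabetic Apoe/RAGE null and 4.37, 3.54, 3.89 and 4.31 in non-diabetic Apoe null aortas, so replicate 10 alone was far above both groups. T and NK cell markers (11 measured) had a median of 0.61, 0.07 without replicate 10 and 0.25 without replicates 9 and 10. Genes of class II antigen presentation (7 measured) were all higher, with a median of 0.41, and -0.24 without replicate 10. H2-DMa, which loads peptides on class II, read 4.88, 7.57, 5.45 and 4.66, against 5.30, 4.75, 4.89 and 5.05 in non-diabetic Apoe null aortas. Like other class II genes it lies within 20 Mb of Ager.

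The list of RAGE ligands and partners (13 measured) also holds Ager itself and Glo1, an enzyme. Of the 13, 11 were higher, Ager and Glo1 among them, with a median of 0.22, and 0.35 without replicates 9 and 10. In diabetic Apoe null aortas the median was 0.06. S100a8, a subunit of the calprotectin of neutrophils, read 5.44, 6.99, 5.86 and 4.40 in diabetic Apoe/RAGE null and 5.37, 3.18, 3.92 and 4.66 in non-diabetic Apoe null aortas, with overlap and a difference of 1.39 ± 0.48. S100a9, its partner, differed by 1.11 ± 0.42. Hmgb2, a chromatin protein related to the RAGE ligand HMGB1, read 6.17, 7.79, 6.65 and 6.12 against 5.93, 5.93, 5.80 and 6.05 in non-diabetic Apoe null aortas, without overlap and 0.76 ± 0.27 higher. Neutrophil markers, which include both S100 genes, had a median of 0.12 (11 measured), 0.05 without replicate 10 and 0.20 without replicate 9. Of these markers 7 were higher and 4 lower. An unadjusted p under 0.05 was reached by 4 of them, all higher, where 4.36% of all genes were higher at that level. The score of the neutrophil markers was 0.27, 0.81, 0.63 and -0.05 in diabetic Apoe/RAGE null and between -0.29 and 0.08 in non-diabetic Apoe null aortas. Their part in the S100 values was not tested. Lgals3, galectin-3, a receptor for glycated proteins, differed by 0.53 ± 0.20, and by 0.49 ± 0.20 in diabetic Apoe null.

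Glo1, the glyoxalase that removes methylglyoxal, a precursor of RAGE ligands, differed between the diabetic groups. It read 9.27, 9.19, 9.56 and 9.31 in diabetic Apoe/RAGE null and 8.58, 8.28, 8.47 and 8.74 in diabetic Apoe null aortas, against 8.64, 9.02, 9.38 and 9.31 in non-diabetic Apoe null aortas. The diabetic groups did not overlap, and Glo1 rose by 0.81 ± 0.15 in the double null group (adjusted p = 0.0436, and 0.0915 without replicates 9 and 10). Against non-diabetic Apoe null the difference was 0.24 ± 0.15 (adjusted p = 0.626). Glo1 read 9.55, 9.34 and 9.31 in non-diabetic Apoe/RAGE null aortas. Glo1 lies within 20 Mb of Ager, and only 2 of its 4 probe sets had the sign of the one given against non-diabetic Apoe null, so its value depends on the probe set.

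The largest median of all 36 lists was that of skeletal muscle markers. Of 14, 13 were higher in diabetic Apoe/RAGE null aortas, with a median of 3.24, and the groups did not overlap for 8, where 1.73% of all genes were higher without overlap. The score was 1.73, 0.99, 2.08 and 2.84 in diabetic Apoe/RAGE null aortas and -1.04, -1.92, -1.92 and 1.20 in non-diabetic Apoe null aortas, so non-diabetic replicate 8 lay above replicate 10. Myh1, the fast myosin of skeletal muscle, read 10.45, 10.18, 9.54 and 10.25 in diabetic Apoe/RAGE null and 5.99, 4.17, 4.53 and 9.03 in non-diabetic Apoe null aortas. The groups did not overlap, and the difference was 4.18 ± 0.89 (adjusted p = 0.342). Without non-diabetic replicate 8 it was 5.21 and was called, as was that of Myhas, an antisense RNA of the myosin cluster, at 4.17. Tnnt3, fast troponin T, was 3.54 ± 0.80, Mylpf, a myosin light chain, 3.09 ± 0.68, and Ryr1, the calcium channel of skeletal muscle, 2.33 ± 0.51. Without replicates 9 and 10 the list's median was 3.86. It was 1.17 in diabetic Apoe null aortas and -0.60 in non-diabetic Apoe/RAGE null aortas, whose 3 arrays scored between -2.11 and -1.35.

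**Figure D5:**
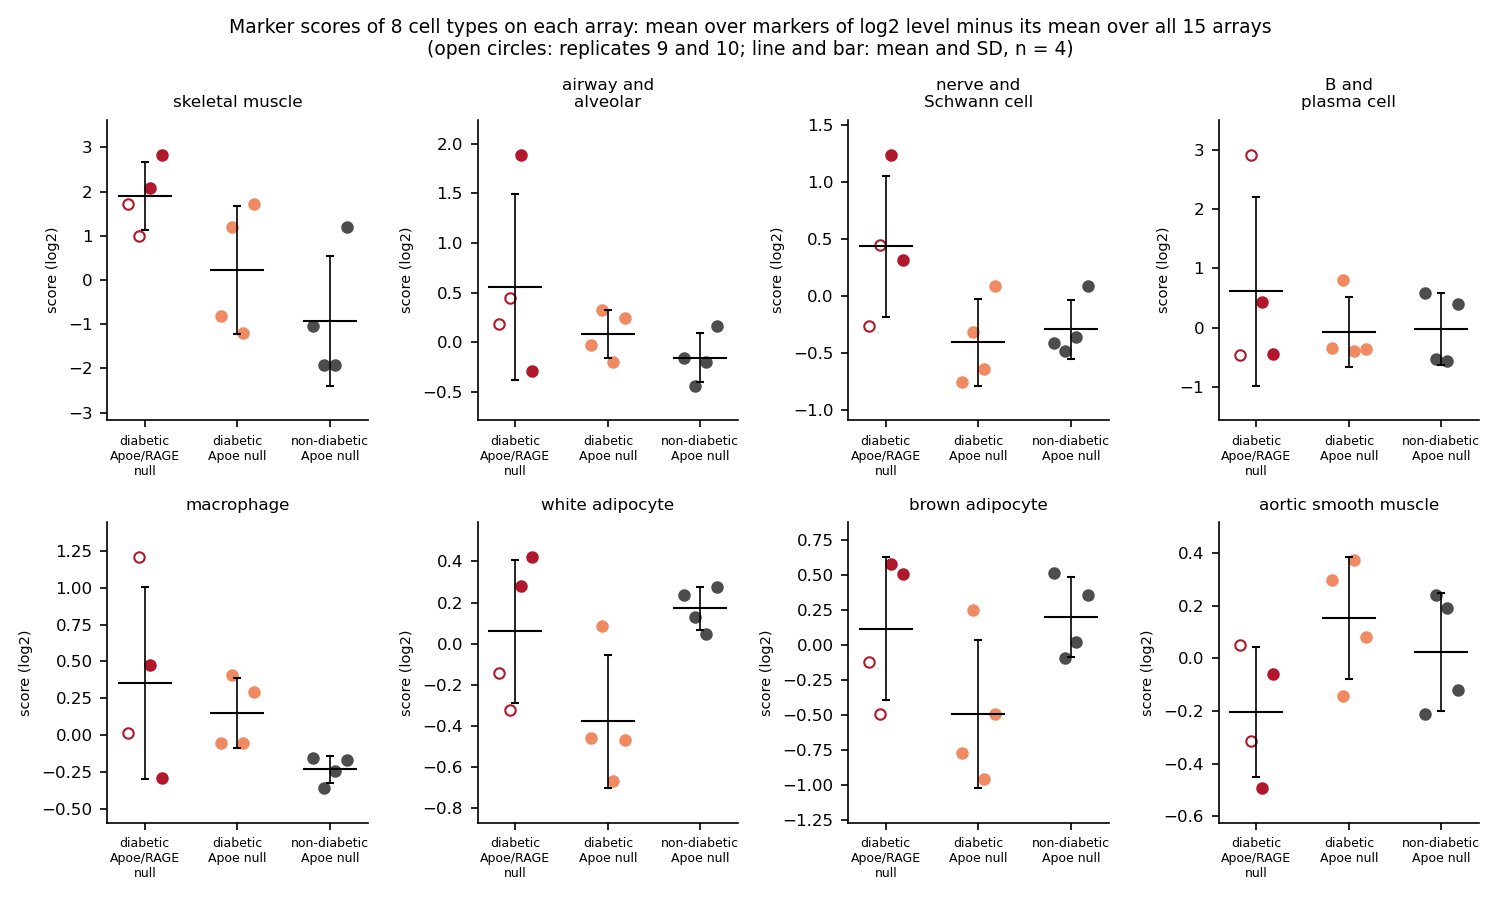
Scores of 8 cell type marker lists on each array, as the mean over markers of the log2 level less its mean over all 15 arrays, with group mean and SD as line and bar. Skeletal muscle scores run from 0.99 to 2.84 in diabetic Apoe/RAGE null aortas and from -1.92 to 1.20 in non-diabetic Apoe null aortas, and replicate 10 is highest for B and plasma cell and macrophage markers.

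The nerve and Schwann cell list (9 measured) had a median of 0.43, with 7 higher and 2 lower, and -0.03 without replicate 11. Without replicates 9 and 10 the median was 0.97, with 8 higher and 1 lower. The list's 3 members without overlap were all higher, where 1.73% of all genes were higher without overlap. They were Th, Dbh and Gap43, which sympathetic neurons express, and none passed the test. Th, tyrosine hydroxylase, the rate-limiting enzyme of catecholamine synthesis, read 5.38, 7.14, 7.98 and 5.70 in diabetic Apoe/RAGE null and 4.44, 4.13, 3.99 and 4.06 in non-diabetic Apoe null aortas, without overlap and 2.39 ± 0.78 apart (adjusted p = 0.45). Dbh, which makes noradrenaline, and Gap43, a growth cone protein, differed by 1.78 ± 0.70 and 1.59 ± 0.62, also without overlap. Ddc and Slc6a2, an enzyme of dopamine synthesis and the noradrenaline transporter, were chosen after their values were seen and differed by 4.35 ± 1.02 and 4.01 ± 0.96 (adjusted p = 0.342 for both). Th also read 6.32 in diabetic Apoe null replicate 4 and 8.51 in non-diabetic Apoe/RAGE null replicate 13, while the other arrays of those groups lay between 3.80 and 4.86. Gfra1, a receptor subunit for the neurotrophic factor GDNF, read 5.78, 5.17, 6.53 and 5.97 in diabetic Apoe/RAGE null and 4.05, 4.29, 4.48 and 4.63 in non-diabetic Apoe null aortas, 1.50 ± 0.32 higher without overlap. Airway markers (10 measured) were split, 7 higher and 3 lower. Their median was 0.34, and 0.07 without replicate 11 but 0.65 without replicates 9 and 10. Scgb1a1, the secretoglobin of airway club cells, read 8.42, 8.94, 10.90 and 5.59 in diabetic Apoe/RAGE null and 5.64, 5.52, 6.30 and 7.0 in non-diabetic Apoe null aortas, high in replicates 9, 10 and 11. How much of the skeletal muscle, ganglion and airway signal came from tissue around the aorta was not tested.

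Immediate early genes, switched on within minutes of a stimulus, were mostly lower. Of 17, 14 were lower, with a median of -0.18, against 0.34 with 14 higher in diabetic Apoe null aortas. The median was -0.07 without non-diabetic replicate 6, -0.33 without replicate 9 and -0.30 without replicates 9 and 10. Non-diabetic Apoe/RAGE null aortas were lower too, with a median of -0.28 against non-diabetic Apoe null and 1 of 17 higher. In diabetic minus non-diabetic Apoe/RAGE null aortas the median was 0.11, with 9 higher. Nr4a1, an orphan nuclear receptor, read 8.96, 7.24, 7.65 and 7.40 in diabetic Apoe/RAGE null and 8.97, 9.11, 9.17 and 9.43 in non-diabetic Apoe null aortas, and replicate 9 was just below the lowest non-diabetic array. The difference was -1.36 ± 0.47. Atf3, a stress-induced transcription factor, read 7.61, 5.66, 5.78 and 5.60 against 6.91, 7.55, 7.25 and 6.95 in non-diabetic Apoe null aortas, and replicate 9 alone lay above the non-diabetic arrays.

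Of the genes named by the smallest p, several have a more even level across arrays, as a ranking by p favours little spread. Six5, a homeobox transcription factor, read 5.70, 5.69, 5.71 and 5.66 in diabetic Apoe/RAGE null, against 6.03, 6.13, 6.16 and 6.04 in non-diabetic Apoe null aortas, a difference of -0.40 ± 0.09 without overlap. Hoxb5os, a transcript opposite Hoxb5, read 5.88, 5.92, 5.85 and 5.80 in diabetic Apoe/RAGE null and 6.67, 6.48, 6.74 and 6.75 in diabetic Apoe null aortas, against 6.77, 6.43, 6.71 and 6.15 in non-diabetic Apoe null aortas. It lay below both other groups on every array, at -0.65 ± 0.12 from non-diabetic Apoe null (adjusted p = 0.342) and -0.80 ± 0.12 from diabetic Apoe null (adjusted p = 0.0356, and 0.0678 without replicates 9 and 10). Without non-diabetic replicate 8 its difference from non-diabetic Apoe null was called, at -0.77. Klhl30, of the kelch-like family, was -0.85 ± 0.16 from non-diabetic Apoe null and -1.23 ± 0.16 from diabetic Apoe null (adjusted p = 0.0356, and 0.0648 without replicates 9 and 10). Trabd2b, a membrane protease that cleaves Wnt proteins, was -0.54 ± 0.12 and -0.61 ± 0.12 from the same groups, the second called (adjusted p = 0.0482, and 0.105 without replicates 9 and 10). P2ry2, a nucleotide receptor of vascular cells, was -0.46 ± 0.09 and -0.23 ± 0.09. The rule also named Ppp1r36 (-0.68), Tmem132a (-0.76), Mipol1 (-0.60) and Focad (-0.36). Higher genes were Arhgap42, a GTPase-activating protein of smooth muscle that lowers vascular tone, at 0.75 ± 0.14, Upp1, uridine phosphorylase, at 0.76 ± 0.16, and Sfmbt1, a Polycomb-type chromatin protein, at 0.27 ± 0.06. For Arhgap42 1 of 2 probe sets and for Sfmbt1 1 of 5 probe sets had the sign of the value given.

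Several lists lay close to the median of all genes. Cholesterol synthesis and uptake (12 measured) had a median of -0.05, circadian clock genes (16 measured) -0.01, insulin, IGF and FoxO response genes (18 measured) 0.07, and vascular inflammation genes (19 measured) 0.01. In the inflammation list the adhesion and cytokine genes of NF-kappaB were split, 11 higher and 8 lower. Ccl2, the monocyte chemokine, differed by 0.29 ± 0.11 and Cxcl10, an interferon-induced chemokine, by 0.37 ± 0.17, and by 0.10 without replicates 9 and 10. Cell cycle genes (15 measured) had a median of 0.08, which was -0.04 without replicate 10 and 0.20 without replicate 9. Glucocorticoid response genes and metallothioneins (14 measured) had a median of 0.10, or 0.02 without non-diabetic replicate 6 and 0.20 without replicate 12, and antioxidant genes (19 measured) one of 0.10, or 0.03 without replicate 11. Gpx3, the plasma glutathione peroxidase, was 0.52 ± 0.18, Gclc, the limiting enzyme of glutathione synthesis, 0.30 ± 0.12 without overlap, and Sod3, the superoxide dismutase of the vessel matrix, -0.39 ± 0.16. Endothelial markers (12 measured) had a median of 0.14, with 11 higher, or 0.04 without replicate 11 and 0.18 without replicates 9 and 10. Cardiac and erythrocyte markers lay farther from it and moved with single arrays. Cardiac muscle markers (11 measured) had a median of 0.32, but -0.39 without non-diabetic replicate 5 and 1.57 without non-diabetic replicate 8, whose cardiac score of 3.31 stood far above the rest of its group. Erythrocyte markers (5 measured) had a median of -0.32, or -0.05 without non-diabetic replicate 5. Kdr, the VEGF receptor of endothelium, read 6.58, 6.94, 7.57 and 6.59 in diabetic Apoe/RAGE null and 6.65, 6.20, 6.08 and 6.68 in non-diabetic Apoe null aortas, with overlap.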

How the data were processed

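RNA of 15 mouse aortas was measured on Affymetrix expression arrays. The deposited values are on a log2 scale and came from RMA, a background correction, normalization and summary of probes, per the submitters' processing notes, with no version given. Nothing further was done to them. Array medians spanned 4.35 to 4.42, and array pairs correlated at 0.972 to 0.997. Besides 64 controls the table held 45037 probe sets. By the array annotation of 2016, 34945 carried 1 gene, 932 several and 9160 none named here, and 34741 matched RefSeq genes of GRCm38.p6 by Entrez ID. Each of 18193 genes is given by its probe set of highest mean.

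Groups were compared in limma (version 3.58.1, under R 4.3.3) by a mean for each group over the whole series, with Benjamini-Hochberg adjustment. The fit was tested on simulated data. Arrays are labelled as separate mice, and p-values measure the spread between them. Lists are described by counts and medians, with no set test. Eligible for naming were genes called without overlap, 12 in each direction, filled up by smallest p, and the 6 members of each list with the smallest p (up to 8 where more than 8 had an unadjusted p under 0.05). Genes outside this rule are said to be chosen after their values were seen. The comparison, members and lists were chosen with earlier results of these data known. The interferon-stimulated response element was added as a motif after the data were seen. RefSeq promoters were listed for 14452 measured genes. The alternatives were the submitters' threshold (B above 0), a fit to the compared groups alone, removal of the dimmer probe sets or of those that can share probes, quantile normalization or median centring, weights for each array, a variance fitted robustly along a trend, a table reduced to 1 probe set for each gene, and arrays left out singly or, for replicates 9 and 10, together. Matplotlib 3.10.9 under Python 3.11.15 drew the figures.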

Additional observations from a re-analysis of the deposited data

Results flagged for a closer look

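Among 264 sets of 4 arrays examined, a single array stood apart from its group in 12, and chance alone flags about 1 in 20. In diabetic Apoe/RAGE null aortas these were Hspa1b in replicate 9, at 10.65 against 9.60 to 9.71 in the other 3 arrays, Atf3 in replicate 9, at 7.61 against 5.60 to 5.78, Ryr1 in replicate 12, at 6.37 against 5.32 to 5.46, and Klhl30 in replicate 10, at 5.58 against 6.01 to 6.05. The cell cycle score was 0.81 in replicate 10 and between -0.20 and -0.04 in the other 3 arrays.

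In non-diabetic Apoe null aortas replicate 8 stood above the rest for the muscle genes Fabp3, at 11.18 against 10.21 to 10.23, Cryab, at 10.79 against 10.07 to 10.19, Ryr1, at 4.50 against 2.76 to 3.01, and Myhas, at 6.77 against 3.70 to 4.10. Its antioxidant score was 0.0022 against -0.05 to -0.04. Replicate 7 was low for Cxcl10, at 3.93 against 4.10 to 4.12, and for the endothelial score, at -0.17 against -0.01 to 0.02.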

How the results depend on the processing

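No probe set was called with all arrays, and the count stayed at 0 with only the compared groups, without the dimmer probe sets, with quantile normalization, median centring, weights for each array, a robust trend in the variance, 1 probe set for each gene, and without shared-probe sets. It was 44 with B above 0, 12 without replicates 9 and 10 together, and 0 to 3 with single arrays left out, 3 without non-diabetic Apoe null replicate 8 and 1 without non-diabetic Apoe null replicate 5. The scalings moved the median of all genes by -0.02 at most. Of 1596 values of 96 named genes under these alternatives, 7 had the other sign, all with arrays left out (Hadha, Cd79a and H2-DMa without replicate 10, and Hadha, Ucp1, Cidec and Mt2 without replicates 9 and 10), and 5 were newly called, Decr2 and Zfp52 without replicates 9 and 10 and Myh1, Myhas and Hoxb5os without non-diabetic Apoe null replicate 8. Of 610 list medians, 63 had the other sign. Where the median was not within 0.1 of 0, these were class II and B cell lists (without replicate 10 and without replicates 9 and 10), cardiac and nerve lists (without single arrays), the brown adipocyte list (without single arrays, without replicates 9 and 10 and with array weights) and the airway list (without shared-probe sets). No paired analysis was possible because the replicate numbers run from 1 to 15 and no groups share one. With 4 arrays per group, a p that misses the threshold does not show that a gene had the same level, and dim probe sets sit near background.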

Other observations

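The values of both diabetic groups are set beside each other for a few further genes, and both share the non-diabetic Apoe null arrays. Gadd45a, a DNA damage response gene and FoxO target, read 4.56, 4.98, 5.05 and 4.41 in diabetic Apoe/RAGE null and 4.81, 4.75, 4.86 and 4.62 in diabetic Apoe null aortas, against 4.22, 4.40, 4.35 and 4.53 in non-diabetic Apoe null aortas. Replicate 12 of the double null group lay within the non-diabetic range. The differences were 0.37 ± 0.13 (adjusted p = 0.463) in diabetic Apoe/RAGE null and 0.38 ± 0.13 (adjusted p = 0.36) in diabetic Apoe null. C1qb, a chain of complement C1q made by macrophages, differed by 0.71 ± 0.24 and 0.34 ± 0.24 in the same comparisons.

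Metallothionein Mt2, which binds zinc and responds to glucocorticoids, read 11.28, 11.17, 10.42 and 10.39 in diabetic Apoe/RAGE null and 10.47, 10.04, 9.51 and 9.75 in diabetic Apoe null aortas, against 10.57, 10.16, 10.34 and 10.72 in non-diabetic Apoe null aortas. Replicates 9 and 10 were above all non-diabetic arrays and replicates 11 and 12 within them. The difference was 0.37 ± 0.24 with all arrays, and -0.04 without replicates 9 and 10. Cidec, a lipid droplet protein of adipocytes, split the other way, at 9.19, 8.89, 9.79 and 10.09 in diabetic Apoe/RAGE null and 9.91, 9.62, 9.48 and 9.88 in non-diabetic Apoe null aortas.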
